A study of Rattus norvegicus with 4 samples.

Results

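Complex I (NADH:ubiquinone oxidoreductase) is built from subunits of both genomes, and its messenger RNAs were examined in INS-1 832/3 cells, an insulin-secreting line derived from a rat insulinoma, grown as monolayer (2D) or bioprinted in hydrogel (3D). Gene symbols beginning with Nduf and one of the letters a, b, c, s or v and a number, or with Mt-nd, were taken, and 43 of the 44 matching symbols had a mean of at least 1 TPM (a length-scaled measure of transcript abundance) over the 4 samples. These 43 genes, 36 nuclear and 7 mitochondrial, were compared among 11960 genes tested and 23360 gene symbols in all. The symbol that matched and was left out was Ndufs6, which was listed at 0 in all 4 samples. Ndufab1, the acyl carrier protein that is also a complex I subunit, is not reached by the naming pattern.

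Complex I takes electrons from NADH and passes them to ubiquinone, and couples this transfer to the pumping of protons across the inner mitochondrial membrane. Its peripheral arm holds the N module, where NADH is oxidized, and the Q module, where ubiquinone is reduced. Its membrane arm pumps protons, and the antiporter-like core subunits of that arm are encoded in mitochondrial DNA. In beta cells, oxidation of NADH by the respiratory chain links glucose metabolism to ATP production and insulin secretion.

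The monolayer group held 2 cultures grown by standard monolayer culture, and the 3D-bioprinted group held 2 cultures printed in GelXA LAMININK 411 hydrogel, a gelatin methacrylate bioink with laminin-411 that was cured with light. All 4 cultures were of the same tumor-derived line, grown in the same supplemented RPMI-1640 medium and harvested after 5 days at passage 3, so each group is 2 cultures of a single line and not primary islets. The authors added the human insulin gene to the rat reference used for quantification. Poly(A) RNA was sequenced and the deposited values are TPM per transcript, which are scaled for transcript length and to a sum of 1000000 per sample. Such values do not carry read counts. The paper states a read count per sample, but the counting error of each gene was not estimated here. Transcripts above 0 numbered 19355 to 19959 per sample. All 10 beta cell markers checked had a mean of at least 1 TPM, and their summed level was 147204 to 160167 TPM in monolayer and 157470 to 170106 TPM in 3D culture. Most of that sum was Ins1, with 114003 and 126460 TPM in the monolayer samples against 127527 and 137822 TPM in the 3D samples. Ins2 had 13237 and 13340 TPM in the monolayer samples against 8957 and 9326 TPM in the 3D samples. Of the 10 markers, 4 had a negative and 6 a positive log2 fold change in 3D culture. Markers of acinar cells (3 of 4 in the files) were at 0, and each list of fibroblast, macrophage and endothelial markers summed to at most 1.68 TPM in any sample. Of 5 alpha cell markers, Irx2 and Ttr were at 0 and the sum was 53.7 to 85.3 TPM in monolayer and 135 to 165 TPM in 3D culture. Most of this was Gcg, with 41.9 and 73.8 TPM in the monolayer samples against 124 and 155 TPM in the 3D samples, and its part in the results on complex I was not tested.

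Promoter windows of 300 bases (250 before and 50 after the gene start, RefSeq, GRCr8) were matched by symbol for 32 of the 36 nuclear genes. They were searched on both strands for 3 short motifs of factors known at respiratory chain genes, a motif of NRF1 (capitals in the Ndufa11, Ndufa12 and Ndufs5 stretches), CCGGAAGT for ETS factors and AAGATGGC for YY1. The NRF1 motif was in 6 windows (18.8%), the ETS motif in 3 (9.38%) and the YY1 motif in 8 (25.0%), and 17 (53.1%) held at least 1 of them. Among all 33469 windows the shares were 4.25%, 3.81% and 3.17%, with 10.3% for any of the 3, and among 8792 windows of genes tested they were 11.1%, 8.86% and 6.12%, with 23.3% for any of the 3. The 17 genes with a motif had a median log2 fold change of -0.32 in 3D culture and the 15 without one had -0.33. The stretches below show, for the 4 genes with the largest falls among those whose bases before the start hold a motif, where the motif lies. They are written 5′ to 3′ on the strand of the gene with the motif in capitals, and in Ndufa11 a pair of overlapping NRF1 motifs forms 1 run.
Ndufa11 (chr9:1637510-1637539, + strand): gcgctgtGCGCATGCGCATGCGCacaggcc
Ndufa12 (chr7:30658194-30658223, + strand): ctccagctctGCGCGTGCGCagagcgacct
Ndufb7 (chr19:41477292-41477318, - strand): ggctagatgacCCGGAAGTcactgaag
Ndufs5 (chr5:141264512-141264541, - strand): gccgctggctGCGCAGGCGCaaaccgctct
The capitals in Ndufb7 are an ETS motif and those in the other genes are NRF1 motifs.

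Nuclear and mitochondrial genes of complex I differed in direction between the culture forms. Of the 36 nuclear genes, 35 had a lower and 1 a higher estimate in 3D culture, while all 7 mitochondrial genes had a higher one. The fold changes are from limma on log2(TPM + 1) after scaling between samples, fitted on all 11960 genes, with p-values adjusted over all of them by the Benjamini-Hochberg method. On this scale 27 nuclear genes fell and 1 rose with an adjusted p below 0.05, and 8 did not pass. Over all genes tested, 19.5% fell and 18.5% rose by the same criterion, 38% in either direction. The median log2 fold change of the nuclear genes was -0.33 and that of all genes tested was -0.003. Of the mitochondrial genes, 5 of 7 rose, and their median log2 fold change was 0.31. With 2 cultures against 2, the smallest two-sided p that an exact permutation test can reach is 0.333, so each call rests on the spread limma shares across genes. Fits with 1 culture left out hold 1 culture in a group, so only their effect sizes are given here. The median log2 fold change of the nuclear genes was -0.35 without 3D replicate 1 and -0.33 without 3D replicate 2. It was -0.39 without monolayer replicate 1 and -0.29 without monolayer replicate 2. In the same order, the mitochondrial median was 0.29, 0.35, 0.23 and 0.38. The median of all genes tested stayed between -0.005 and -0.002. Which genes passed depended on the culture left out, and fewest of all genes tested passed without 3D replicate 1. With the replicate number of the labels as a block, 29 nuclear and 2 mitochondrial genes passed. From bulk RNA, fewer cells of a kind and less RNA per cell cannot be told apart.

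**Figure D1:**
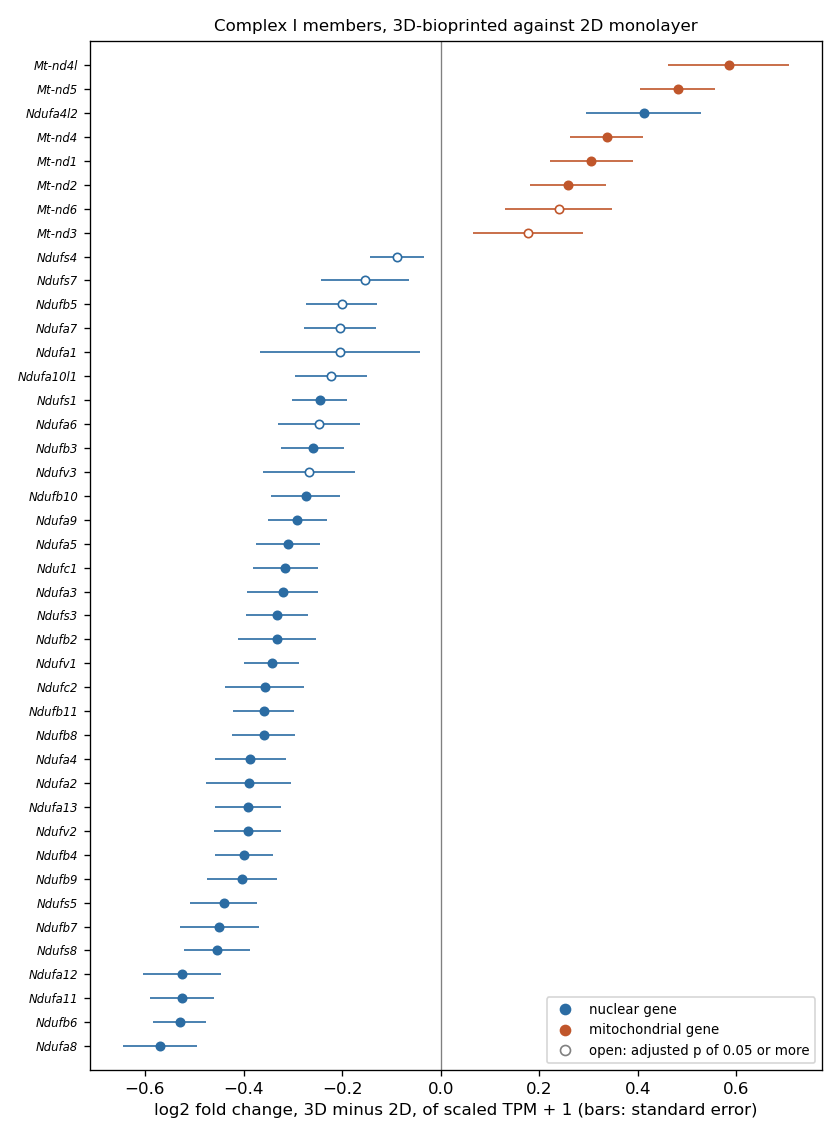
Log2 fold change of 42 complex I genes in 3D-bioprinted against 2D monolayer culture on the log2(TPM + 1) scale, with the standard error from limma as bars and filled points for an adjusted p below 0.05. The 7 mitochondrial genes and Ndufa4l2 lie right of 0 and the other 34 nuclear genes shown left of it.

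The sum of the 36 nuclear messages was 10196 and 10254 TPM in the monolayer samples and 8045 and 8529 TPM in the 3D samples. The sum of the 7 mitochondrial genes was 19240 and 19074 TPM in the monolayer samples against 25318 and 24185 TPM in the 3D samples. The groups did not overlap in either sum, and the sums moved in opposite directions. Within each sample the mitochondrial sum was 1.89 and 1.86 times the nuclear sum in monolayer and 3.15 and 2.84 times in 3D culture. On the log2 scale this ratio was 0.91 ± 0.015 (SD, n = 2) for the monolayer group and 1.58 ± 0.11 (SD, n = 2) for the 3D group, a difference of 0.67. This ratio is taken within a sample and does not depend on the scaling between samples. Leaving out each culture in turn moved the difference between 0.60 and 0.75.

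**Figure D2:**
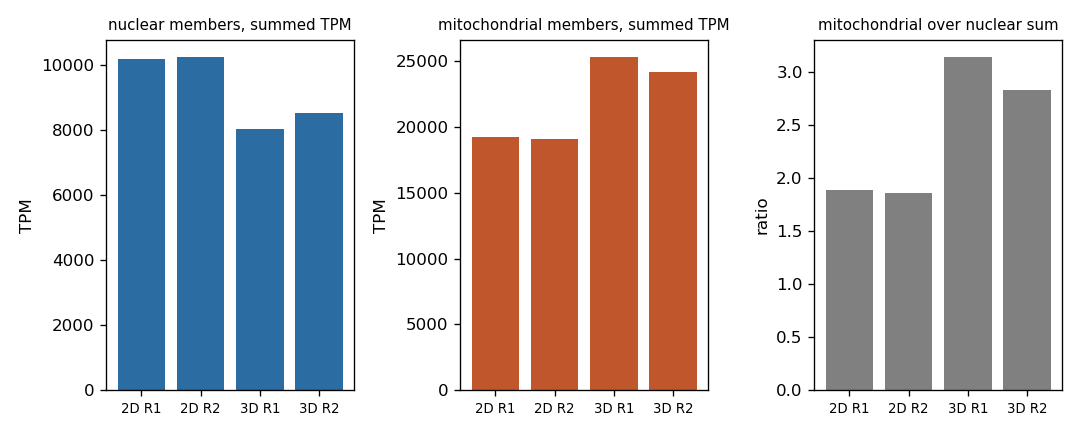
Summed TPM of the 36 nuclear and the 7 mitochondrial complex I genes and the ratio of the sums, with 1 bar for each culture. The nuclear sum was lower and the mitochondrial sum higher in both 3D cultures, and the ratio went from 1.86 and 1.89 to 2.84 and 3.15.

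The difference between the genomes was tested gene by gene, with every gene of the table expressed relative to the summed Mt-nd TPM of its own sample. In this fit 35 of the 36 nuclear genes were lower in 3D culture with an adjusted p below 0.05 in limma, and Ndufa4l2 was not (log2 change 0.08, adjusted p = 0.634). Relative to the same sum, 55.3% of all genes tested were lower and 4.94% higher by that criterion, since the sum itself was higher in 3D culture. The median relative change of the nuclear genes was -0.66, against -0.33 for all genes tested. Among the 35 that passed, the smallest change was that of Ndufs4 (-0.42). Counts of this fit with 1 culture left out are not given, since a group then holds 1 culture.

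In TPM a rise of abundant messages lowers all others by construction. All 13 mitochondrial protein genes together took 10.1% and 9.35% of TPM in monolayer and 13.0% and 12.3% in 3D culture. In a setting chosen after the data were seen, these 13 genes were removed. The remaining genes were rescaled to a common total, with no further scaling between samples. There 23 of the 36 nuclear complex I genes passed as lower in limma. The median log2 fold change of the 36 was -0.24, against 0.08 for all genes. In that setting 1400 genes of the whole table were lower and 2636 higher (2329 and 2213 with trimmed-mean scaling), Ndufs1, Ndufa3, Ndufb3 and Ndufc1 no longer passed, and the estimate of Ndufs4 was 1.01e-04. The trimmed-mean scaling used elsewhere cancels any rescaling to a common total. The 10 most abundant transcripts of any genome took 23.4% and 24.2% of TPM in monolayer and 26.4% and 26.9% in 3D culture.

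The nuclear core subunits carry the flavin and the iron-sulfur clusters along which electrons travel. Of those described here, Ndufv1, Ndufv2, Ndufs1, Ndufs3 and Ndufs8 fell and Ndufs7 did not pass. Ndufv1, the subunit that binds NADH and flavin, had 192 and 194 TPM in the monolayer samples against 156 and 157 TPM in the 3D samples. Its log2 fold change was -0.34 (standard error, SE, 0.056, limma adjusted p = 0.010). Ndufv2, its partner with an iron-sulfur cluster, had 106 and 112 TPM in the monolayer samples against 84.1 and 86.7 TPM in the 3D samples. Both genes of this pair were lower in each 3D culture than in either monolayer culture. Ndufs1, the largest subunit of the N module, had 58.5 and 55.7 TPM in the monolayer samples against 50.2 and 48.7 TPM in the 3D samples (log2 fold change -0.25, limma adjusted p = 0.023).

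Ndufs8, a core subunit of the Q module, carries a pair of iron-sulfur clusters. It had 126 and 125 TPM in the monolayer samples against 89.2 and 99.5 TPM in the 3D samples, with a log2 fold change of -0.45 (SE 0.066, limma adjusted p = 0.0078). Ndufs3, another Q module subunit, had 90.5 and 93.6 TPM in the monolayer samples against 74.8 and 75.5 TPM in the 3D samples. Its log2 fold change was -0.33 (limma adjusted p = 0.014). Ndufs7, which holds the last cluster before ubiquinone, had 61.8 and 68.5 TPM in the monolayer samples against 62.1 and 58.4 TPM in the 3D samples. Its groups overlapped, and the log2 fold change of -0.15 did not pass (limma adjusted p = 0.219).

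The largest falls were in accessory subunits, which surround the core and stabilise the complex. Ndufa8, a subunit on the intermembrane space side of the membrane arm, had 233 and 243 TPM in the monolayer samples against 157 and 174 TPM in the 3D samples. Its log2 fold change was -0.57 (SE 0.075, limma adjusted p = 0.0063), and it is listed with a pair of transcripts that were both lower in 3D culture. Ndufb6, of the distal membrane arm, had 185 and 183 TPM in the monolayer samples against 129 and 133 TPM in the 3D samples (log2 fold change -0.53, limma adjusted p = 0.0044). The spread within each group was small against the gap between them in both genes. Ndufa11, a membrane subunit at the junction of the arm, had 362 and 372 TPM in the monolayer samples against 266 and 259 TPM in the 3D samples (log2 fold change -0.53, limma adjusted p = 0.0057). Ndufa12, an accessory subunit of the peripheral arm, had 472 and 514 TPM in the monolayer samples against 347 and 358 TPM in the 3D samples (log2 fold change -0.52, limma adjusted p = 0.0084). Together with Ndufs8 these are the 5 nuclear genes with the most negative fold changes.

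Falls were spread over the structural modules. In the distal membrane arm 9 of 10 nuclear genes fell, with a median log2 fold change of -0.36, and Ndufb5 was the gene that did not pass (-0.20, limma adjusted p = 0.076). In the proximal membrane arm 7 of 8 fell, with a median of -0.37. In the N module 5 of 9 fell, with a median of -0.27. The N module genes that did not pass were Ndufv3, Ndufa6, Ndufa7 and Ndufs4, with log2 fold changes of -0.27, -0.25, -0.20 and -0.09. Differences between modules were not tested. Of the 27 accessory genes 20 fell, with a median log2 fold change of -0.33. By the same criterion, 19.5% of all genes tested fell. Among the genes not described singly here, Ndufs5, Ndufb7, Ndufb9, Ndufb4, Ndufa13 and Ndufa2 fell by 0.39 to 0.45 on the log2 scale, and Ndufb8, Ndufb11, Ndufc2, Ndufb2, Ndufa3, Ndufc1, Ndufa5, Ndufa9, Ndufb10 and Ndufb3 by 0.26 to 0.36. Both 3D samples were below both monolayer samples in 33 of the 36 nuclear genes, an order found in 38.2% of all genes tested.

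**Figure D3:**
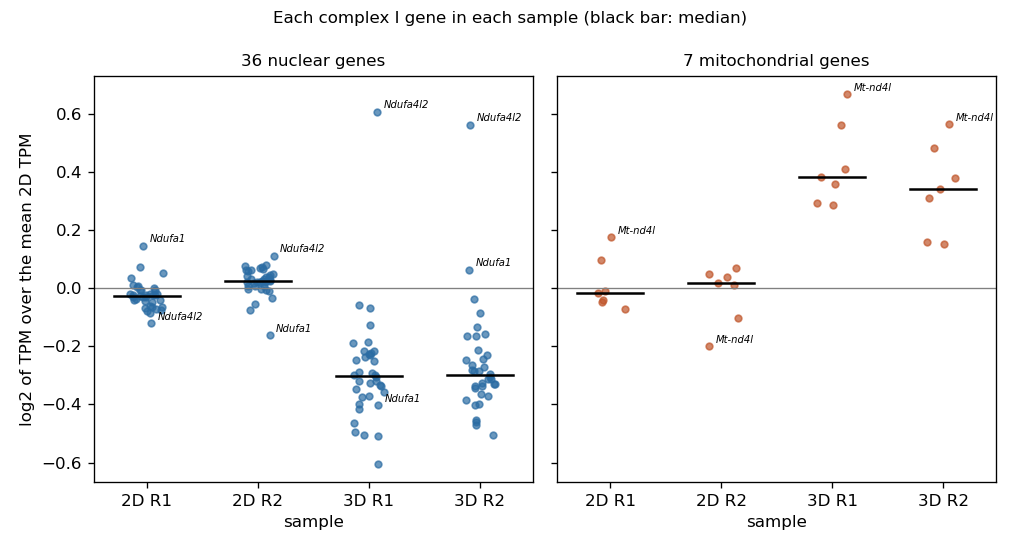
TPM of each complex I gene in each sample as log2 of its ratio to the mean of the 2 monolayer samples, for 36 nuclear and 7 mitochondrial genes, with black bars at the medians. Most nuclear genes lay below 0 and all mitochondrial genes above 0 in both 3D samples, and Ndufa1 was high in 3D R2 and low in 3D R1.

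The following 3 genes were singled out after their values were seen. Ndufa1, a small single-pass membrane subunit encoded on the X chromosome, was the most abundant nuclear message of the complex, at 1577 and 1274 TPM in the monolayer samples against 1078 and 1490 TPM in the 3D samples. Its groups overlapped and its standard error of 0.16 was the largest among the 43 genes (log2 fold change -0.21, limma adjusted p = 0.348). Omitting 3D replicate 1 gave Ndufa1 a log2 fold change of 0.018, and omitting 3D replicate 2 gave -0.43. Without Ndufa1 the nuclear sum was 8618 and 8980 TPM in the monolayer samples against 6967 and 7039 TPM in the 3D samples. Ndufs4, an N module subunit known for severe mitochondrial disease when lost, had 72.5 and 72.1 TPM in the monolayer samples against 69.5 and 70.5 TPM in the 3D samples (log2 fold change -0.09, SE 0.055, limma adjusted p = 0.236). This was the smallest change among the nuclear genes.

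Ndufv3, a flavoprotein accessory subunit, is the third gene and is listed with 3 transcripts, of which ENSRNOT00000030926.1 was at 0 in all samples. ENSRNOT00000086272.1 had 348 and 396 TPM in the monolayer samples against 264 and 296 TPM in the 3D samples, a log2 fold change of -0.47 (SE 0.11, limma adjusted p = 0.046 over 15020 transcripts). ENSRNOT00000001564.4 had 59.8 and 61.6 TPM in the monolayer samples against 90.2 and 90.0 TPM in the 3D samples, a log2 fold change of 0.50 (SE 0.062, limma adjusted p = 0.018). The transcripts moved in opposite directions, and the share of the second in the gene's TPM was 14.1% ± 0.85 (SD, n = 2) for the monolayer group and 24.4% ± 1.51 (SD, n = 2) for the 3D group. The change of the ratio passed a test over 2370 genes with several transcripts (log2 change 0.97, adjusted p = 0.016 in limma's diffSplice), as it did for 8.69% of those genes. The adjusted p was 0.131 without 3D replicate 1 and 0.082 without 3D replicate 2. Among single transcripts, 23.5% passed in either direction. The sum over transcripts was lower in both 3D samples but did not pass (log2 fold change -0.27, limma adjusted p = 0.070). The ratio test did not pass for the transcript pairs of Ndufa8 (adjusted p = 0.504 in limma's diffSplice) and Ndufa12 (0.238).

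**Figure D4:**
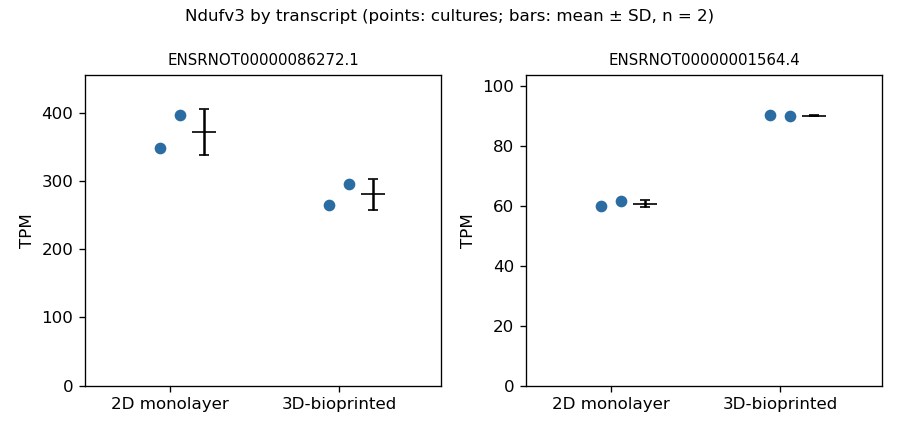
TPM of both detected Ndufv3 transcripts in each culture, with mean and SD (n = 2) beside the points. ENSRNOT00000086272.1 went from 372 to 280 TPM and ENSRNOT00000001564.4 from 60.7 to 90.1 TPM.

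Ndufa4 and Ndufa4l2 match the naming pattern, but Ndufa4 is now counted as a subunit of cytochrome c oxidase, and Ndufa4l2 is its paralog, known to be induced under low oxygen. Ndufa4 had 582 and 619 TPM in the monolayer samples against 469 and 478 TPM in the 3D samples and fell with the complex I genes (log2 fold change -0.39, limma adjusted p = 0.014). Ndufa4l2 had 2.34 and 2.75 TPM in the monolayer samples against 3.88 and 3.77 TPM in the 3D samples. It was the only nuclear gene of the set that rose, with a log2 fold change of 0.41 (SE 0.12, limma adjusted p = 0.041), and its adjusted p ranged from 0.029 to 0.179 in 14 other settings. At this level the added pseudocount of 1 lowers the fold change. Without this pair of genes, 26 of 34 nuclear genes fell.

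Other entries need care in reading. Ndufa10l1, with 28.2 and 28.2 TPM in the monolayer samples against 25.8 and 23.7 TPM in the 3D samples, is listed by RefSeq with the older name Ndufa10, and RefSeq also lists a separate Ndufa10 gene, for which no symbol was found here. Reads of such similar copies can be divided between them, and its log2 fold change of -0.22 did not pass (limma adjusted p = 0.060). Ndufab1, outside the rule, had 30.4 and 29.0 TPM in the monolayer samples against 21.4 and 24.5 TPM in the 3D samples (log2 fold change -0.40, limma adjusted p = 0.014).

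The mitochondrial genes encode the hydrophobic core of the membrane arm, and 5 of 7 rose in 3D culture. Mt-nd4l, the smallest of these subunits, had 3879 and 2987 TPM in the monolayer samples against 5448 and 5077 TPM in the 3D samples. Its log2 fold change of 0.58 (SE 0.12, limma adjusted p = 0.018) was the largest of the set, and its monolayer cultures differed more than its 3D cultures. Mt-nd5, an antiporter-like subunit at the tip of the arm, had 1091 and 951 TPM in the monolayer samples against 1506 and 1426 TPM in the 3D samples (log2 fold change 0.48, SE 0.076, limma adjusted p = 0.0093). Mt-nd4, another antiporter-like subunit, had 2624 and 2663 TPM in the monolayer samples against 3447 and 3433 TPM in the 3D samples (log2 fold change 0.34, limma adjusted p = 0.021). Neither of these antiporter-like genes showed overlap between the groups. Within a sample, Mt-nd4l was 1.48 and 1.12 times Mt-nd4 in monolayer and 1.58 and 1.48 times in 3D culture. Monolayer replicate 1 was thus close to 3D replicate 2 in this ratio. How reads were divided between Mt-nd4l and Mt-nd4 was not tested. Mt-nd1, which adjoins the ubiquinone site, had 2832 and 2996 TPM in the monolayer samples against 3732 and 3690 TPM in the 3D samples (log2 fold change 0.31, limma adjusted p = 0.038). Mt-nd2 had 3037 and 3112 TPM in the monolayer samples against 3768 and 3808 TPM in the 3D samples (log2 fold change 0.26, limma adjusted p = 0.047).

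The other 2 mitochondrial genes did not pass. Mt-nd3 had 5643 and 6223 TPM in the monolayer samples against 7233 and 6596 TPM in the 3D samples (log2 fold change 0.18, SE 0.11, limma adjusted p = 0.248), and its groups overlapped after scaling between samples. Mt-nd6, the only protein gene on the light strand of mitochondrial DNA, had 134 and 143 TPM in the monolayer samples against 184 and 154 TPM in the 3D samples (log2 fold change 0.24, limma adjusted p = 0.131). Both 3D samples were above both monolayer samples in 6 of the 7 mitochondrial genes after scaling, an order found in 37.3% of all genes tested. Calls of single mitochondrial genes depended on the settings. Without an expression filter 1 of 7 passed, against 9.71% of all genes that rose in that setting. At an adjusted p below 0.01 also 1 passed, against 6.05% of all genes. All 7 kept a higher estimate in every setting in which they were fitted.

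TPM is scaled for length, and on this scale the mitochondrial messages stood above most nuclear ones. The libraries were of poly(A) RNA, and how evenly that step captured each message was not tested. The order of levels below therefore describes these libraries. Mt-nd3 had the highest mean over the 4 samples, 6424 TPM, and every sample of it exceeded every sample of Mt-nd4l (mean 4348 TPM). Mt-nd4l, Mt-nd2, Mt-nd1 and Mt-nd4 followed with overlapping ranges of samples, and Mt-nd4 was clear of the next gene, Ndufa1. Mt-nd5, with a mean of 1243 TPM, overlapped with Ndufa1 and was clear of Ndufb8 at 647 TPM. Mt-nd6 lay far lower, at a mean of 154 TPM, among the nuclear genes. The nuclear genes other than Ndufa1 ran from Ndufb8 down to Ndufs1 at 53.3 TPM with overlap between all neighbours, and then to Ndufa10l1 at 26.5 TPM and Ndufa4l2 at 3.19 TPM. The median over the nuclear genes was 174 TPM. The correlation of log2 fold change with log2 of mean TPM was -0.66 over the 36 nuclear genes and -0.35 over the 35 other than Ndufa4l2, so much of it rested on that gene, and it is a description over genes that share the same 4 libraries.

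Genes that assemble complex I, and genes that act beside it, were counted from lists in the same fit. Of 19 assembly factors listed, 17 were tested, 9 fell and 0 rose with an adjusted p below 0.05 in limma, against 19.5% and 18.5% of all genes, and 15 had lower estimates, with a median log2 fold change of -0.27. The smallest p-values were those of Ndufaf5, a methyltransferase-like enzyme that hydroxylates Ndufs7 during assembly, Ndufaf8, which acts with Ndufaf5, and Ndufaf2, which precedes Ndufa12 on the growing complex. Ndufaf5 had 38.2 and 38.3 TPM in the monolayer samples against 25.9 and 27.9 TPM in the 3D samples (log2 fold change -0.54, limma adjusted p = 0.0055). Ndufaf8 had a log2 fold change of -0.45 and Ndufaf2 of -0.51. Without scaling between samples 5 assembly factors fell, against 15.2% of all genes tested. Whichever culture was left out, fewer assembly factors fell than in the fit on all cultures, and fewer of all genes tested passed as well. The estimates of Foxred1, an assembly factor related to oxidoreductases, and Ndufaf4 were 0.21 and 0.07 and did not pass.

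Complex II, succinate dehydrogenase, feeds electrons to ubiquinone without complex I and has no mitochondrially encoded subunit. Of its 4 subunits Sdhc, Sdhd and Sdhb fell, with log2 fold changes of -0.30, -0.23 and -0.23, and the flavoprotein Sdha did not pass (-0.05, limma adjusted p = 0.493). Over all genes tested 19.5% fell. Without scaling 1 of the 4 fell, against 15.2% of all genes tested. With either 3D culture left out, fewer of the 4 passed in limma, and fewer of all genes tested passed as well. Among 7 tested genes of other routes to ubiquinone, Etfb, Etfdh and Sqor fell (42.9%, against 19.5% of all genes tested) and Chdh rose (14.3%, against 18.5%). Chdh, choline dehydrogenase, had 7.69 and 7.68 TPM in the monolayer samples against 15.7 and 15.8 TPM in the 3D samples (log2 fold change 0.91, limma adjusted p = 0.0036). Etfb, a subunit of the electron transfer flavoprotein, had a log2 fold change of -0.38, and Sqor, sulfide:quinone oxidoreductase, of -0.56. Gpd2, the glycerol phosphate dehydrogenase that is abundant in beta cells, had 42.7 and 37.3 TPM in the monolayer samples against 42.9 and 45.3 TPM in the 3D samples (log2 fold change 0.10, limma adjusted p = 0.286).

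The 6 mitochondrial genes of the other complexes were higher in both 3D samples than in both monolayer samples. Such an order was found in 37.3% of all genes tested. Their median log2 fold change was 0.27, and only Mt-atp8 passed (0.49, limma adjusted p = 0.045). This is 16.7% of the 6, against 18.5% of all genes tested that rose. The number that passed was 5 without scaling between samples, with a mean of at least 5 TPM and without the intensity trend, and 0 with the replicate block. Mt-co1 and Mt-cyb had log2 fold changes of 0.30 and 0.25. The complex I messages made up 19.1% and 20.4% of mitochondrial TPM in monolayer and 19.5% and 19.7% in 3D culture, so the groups overlapped in this share. Of 22 tested factors of mitochondrial DNA maintenance, transcription and RNA stability, 4 (18.2%) fell and 2 (9.09%) rose with an adjusted p below 0.05 in limma, against 19.5% and 18.5% of all genes tested, and the median log2 fold change was -0.04. Tfb1m, a mitochondrial rRNA methyltransferase, had a log2 fold change of -0.44 (limma adjusted p = 0.0078), Polg, the mitochondrial DNA polymerase, of -0.34, and Tbrg4, an RNA stability factor of the FASTK family, of 0.29. Mtpap, the mitochondrial poly(A) polymerase, rose by 0.27 on the log2 scale. Tfam, which packages mitochondrial DNA, had 88.3 and 87.3 TPM in the monolayer samples against 82.8 and 82.1 TPM in the 3D samples (log2 fold change -0.13, limma adjusted p = 0.105). Lrpprc, a stabiliser of mitochondrial messages, had 74.0 and 70.0 TPM in the monolayer samples against 73.7 and 73.2 TPM in the 3D samples (log2 fold change -0.01, limma adjusted p = 0.845).

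**Figure D5:**
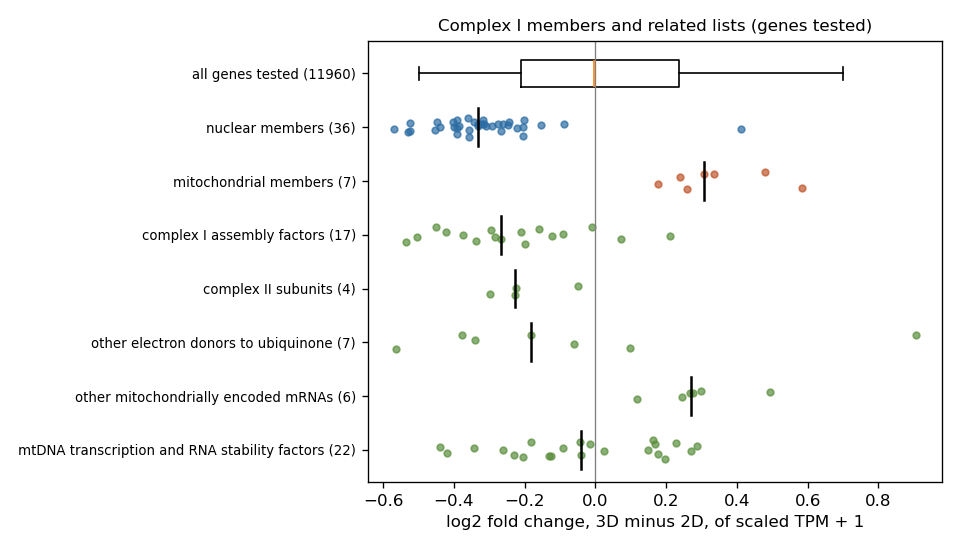
Log2 fold changes (3D against 2D) of complex I genes and of related lists with their medians as black bars, beside a box plot of all 11960 genes tested (median, quartiles and whiskers at the percentiles 5 and 95). The nuclear genes centre at -0.33, the assembly factors at -0.27 and the mitochondrial genes at 0.31, while all genes centre at -0.003.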

How the data were processed

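The authors quantified 75 bp single-end reads of stranded poly(A) libraries with Salmon 1.2 against an rn4 reference that included the human insulin gene, checked them with FastQC 0.11.8, and deposited TPM per transcript for each of 4 samples. The deposited values have decimal commas and were entered as another unit in the automated unit check. Conditions and replicate numbers came from the sample labels. The test of counts named in the methods could not be run on TPM. TPM were summed per symbol, genes with a mean of at least 1 TPM were kept, scaling between samples used trimmed means of M values with no weights (30% of M and 5% of A at each end; factors 0.960 to 1.02), and limma 3.58.1 in R 4.3.3 was run on log2(TPM + 1) (empirical Bayes with intensity trend, Benjamini-Hochberg). Levels in the text are TPM as deposited. Transcripts were fitted in the same way and their ratios with diffSplice. Promoter sequences are from RefSeq (GRCr8) and were matched by symbol.

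The members and lists were chosen with earlier results of these data known. Genes given in every sample are the mitochondrial members, nuclear core genes, the 5 largest nuclear falls and members against the direction of their genome, and of each list the 3 smallest p-values are named. Cultures sharing a replicate number did not deviate together (correlation of deviations -0.006). In simulated TPM, run on 11125 genes, 79.0% of 100 genes changed by 0.5 and 99.0% of 100 changed by 1 on the log2 scale were called, and 7.77% of calls were of unchanged genes. The simulated noise was independent between genes and cultures, and all other genes were left unchanged, whereas 38% of genes passed in the data. The smallest change tried, 0.5, was larger than the nuclear median of -0.33 in size. These rates hold for that setting only. Transcript lengths were not used here, and the values of 1 member, which is in the counts and sums, are not reported here.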

Additional observations from a re-analysis of the deposited data

How the results depend on the processing

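Alternatives were the scaling between samples, the expression filter, the pseudocount, the intensity trend, the replicate block, the threshold, the most abundant transcript of a gene in place of the sum, and each culture left out. Leaving a group with 1 culture assumes that it varies like the other group. All 35 nuclear genes with a lower estimate kept that sign in every setting except Ndufa1, at 0.018 without 3D replicate 1 and -0.43 without 3D replicate 2, and Ndufs4, at 1.01e-04 with nuclear genes rescaled to a common total and not scaled further. In that setting, added after seeing the data, 23 nuclear complex I genes and 12 genes of the other lists passed. At an adjusted p below 0.01, 1418 genes of the whole table, 7 nuclear and 1 mitochondrial complex I genes and 4 genes of the other lists passed (4542, 27, 5 and 23 at 0.05). Mitochondrial calls were 1 without an expression filter and 2 with the replicate block, where 9.71% and 20.5% of all genes rose. With each culture left out in turn, calls ran from 136 to 4507 for all genes, 0 to 30 for nuclear genes, 0 to 3 for mitochondrial genes and 0 to 20 for the other lists, with the lowest without 3D replicate 1 (for mitochondrial genes also without 3D replicate 2). The replicate block called 4816 genes in all and 29 nuclear genes. Relative to the mitochondrial sum, 34 or 35 nuclear genes passed in every setting run with all 4 cultures. In those settings 39.4% to 62.6% of all genes were lower relative to that sum. The causes of these shifts were not tested. TPM keeps no depth, and what depth limits was not estimated.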
